A study of Rattus norvegicus with 8 samples.

Results

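Described here are 10 genes of rat oligodendrocyte precursor cells: the 4 inhibitor of DNA binding genes (Id1, Id2, Id3 and Id4) and 6 genes of bone morphogenetic protein (BMP) signalling (Bmp4, Bmp7, Bmpr1a, Smad6, Smad7 and Bambi). Their rows were found by gene symbol, and the set was chosen with earlier results of these data known. Each symbol stood on 1 row, so the genes take 10 of the 32662 rows of the deposited table. In the order just given their identifiers there are ENSRNOG00000021750, ENSRNOG00000007237, ENSRNOG00000026124, ENSRNOG00000016099, ENSRNOG00000009694, ENSRNOG00000053384, ENSRNOG00000052469, ENSRNOG00000009173, ENSRNOG00000018359 and ENSRNOG00000016066. Messenger RNA was sequenced in 8 libraries of primary precursor cells from the cerebral cortex of Sprague Dawley rats, 4 of them control and 4 deprived of oxygen and glucose for 6 h (OGD), which models ischaemia in a dish. All 8 libraries were recorded with the same preparation. Mixed glia from rats 1 to 2 days old were grown in 20% serum, and the cells that did not adhere were kept for 4 to 5 days in medium with 2 mM glutamine, 2% B27, 1% antibiotic and 10 ng/ml each of PDGF and FGF, growth factors that hold precursors in division. No allele, transgene or other agent was recorded. Nothing in the labels says that libraries of a group were separate cultures, so p-values speak only of the spread among these libraries, and that spread may be technical.

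BMPs are secreted ligands that join a type I receptor such as Bmpr1a to a type II receptor. The receptors then phosphorylate Smad1, Smad5 and Smad9, which enter the nucleus with Smad4 and switch on target genes, among which Id1, Id2 and Id3 are the best known. Smad6, Smad7 and Bambi are induced by the pathway in many cells and block it at the receptor. Id proteins lack the DNA-binding stretch of basic helix-loop-helix (bHLH) factors. They hold E proteins (Tcf3, Tcf4 and Tcf12) in pairs that cannot bind DNA, away from partners such as Olig1 and Olig2. In precursor cells BMP signalling is known for blocking the step to oligodendrocytes and favouring astrocytes, and Id2 and Id4 are known as inhibitors of that step.

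Under OGD, 3 of the 4 Id genes rose, Id1 to 5.21, Id3 to 5.45 and Id2 to 2.85 times the control mean, while Id4 did not pass the test. The 2 ligands moved apart, with Bmp4 higher and Bmp7 lower. The receptor Bmpr1a and the inhibitors Smad7 and Bambi did not pass, and Smad6 was barely read at all. Of the 10 genes, 9 passed the filter on low values (1 FPKM or more in 4 or more libraries, where FPKM counts fragments scaled by gene length and library size). All 9 reached 1 FPKM in every library of both groups. By limma, on log2(FPKM + 1) and adjusted by Benjamini-Hochberg over 11149 tested genes, 4 rose, 1 fell and 4 did not pass. Of all tested genes, 22.7% rose, 26.8% fell and 49.5% changed. The median log2 change was 0.41 over the 9 genes and -0.04 over all tested genes. Control and OGD values were fully apart for 4 of the 9 (Id1, Id2, Id3 and Bmp4, all with OGD above), beside 44.7% of tested genes in either direction and 20.7% with OGD above.

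**Figure D1:**
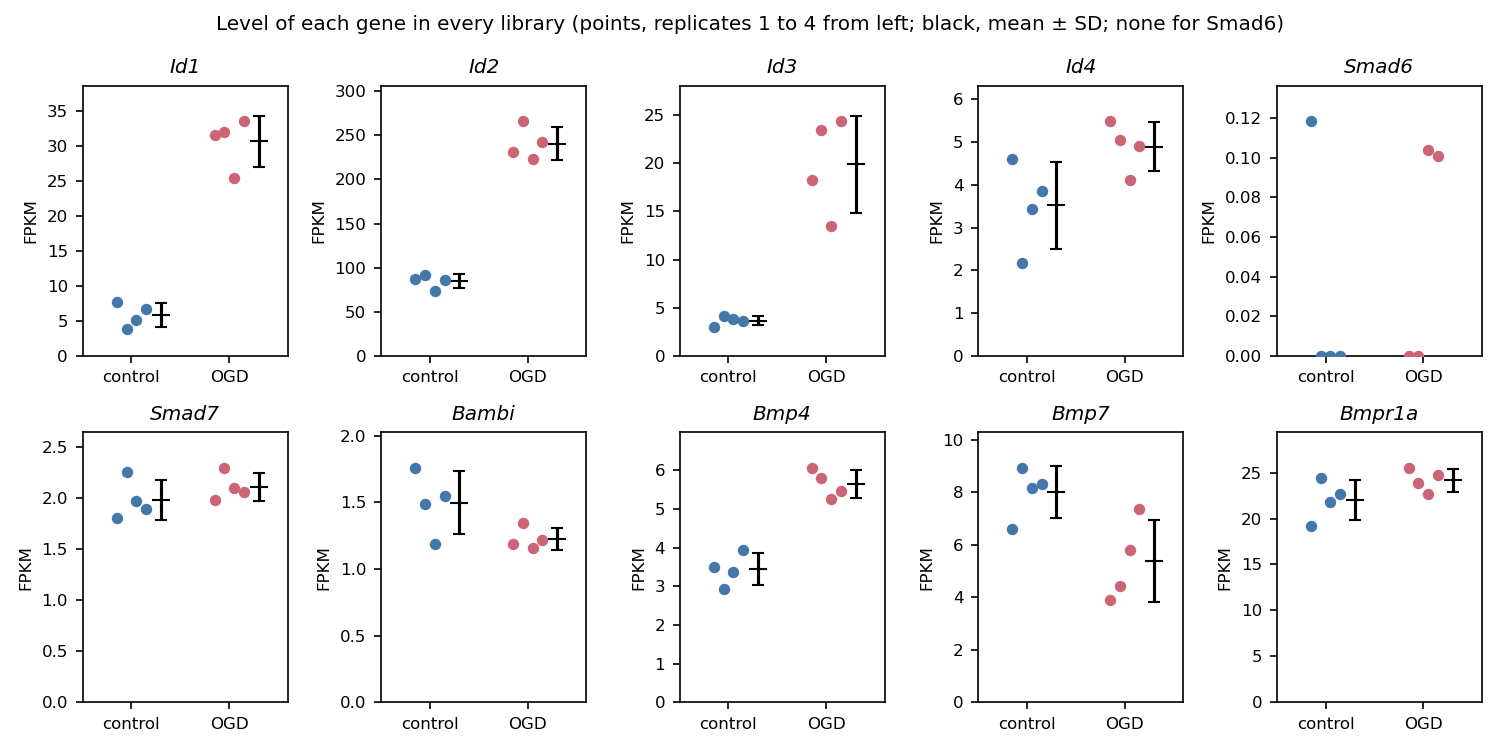
FPKM (vertical axes, each from 0) of the 10 genes in the 4 control and 4 OGD libraries; points are replicates 1 to 4 from left to right, and black marks give the mean and SD, except for Smad6, which is listed at 0 in 5 libraries. Id1, Id2, Id3 and Bmp4 have every OGD point above every control point, and the Bmp7 points of the OGD group spread from 3.90 to 7.38 FPKM.

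The stretches of 250 bases before the annotated starts of the 4 genes that rose are shown because these genes moved the same way, and a reader may want to look for shared letters. They are RefSeq sequence of the GRCr8 build. The deposited values were made on another build, and the transcripts measured may start elsewhere. Capitals mark any of 5 motifs searched on both strands: ACGTG (the letters of the hypoxia response element core), GGCGCC (those of a GC-rich element bound by Smad1 and Smad5), CAGAC (those of the Smad element), TGACG (those of the cyclic AMP response element) and CANNTG (the E-box, the site of bHLH factors). Id1 lies on the plus strand at chr3:161671314-161671563, Id2 on the minus strand at chr6:47470996-47471245, Id3 on the plus strand at chr5:153656041-153656290 and Bmp4 on the minus strand at chr15:22101934-22102183.
Id1: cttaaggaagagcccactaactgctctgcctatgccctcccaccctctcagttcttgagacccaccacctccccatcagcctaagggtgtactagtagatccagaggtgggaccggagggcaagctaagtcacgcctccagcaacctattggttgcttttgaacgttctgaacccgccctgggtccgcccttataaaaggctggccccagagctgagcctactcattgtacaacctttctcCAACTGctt
Id2: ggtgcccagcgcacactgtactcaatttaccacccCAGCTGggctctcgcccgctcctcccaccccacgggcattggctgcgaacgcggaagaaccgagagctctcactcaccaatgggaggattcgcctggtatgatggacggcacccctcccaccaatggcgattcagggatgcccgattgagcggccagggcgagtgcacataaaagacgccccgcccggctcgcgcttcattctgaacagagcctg
Id3: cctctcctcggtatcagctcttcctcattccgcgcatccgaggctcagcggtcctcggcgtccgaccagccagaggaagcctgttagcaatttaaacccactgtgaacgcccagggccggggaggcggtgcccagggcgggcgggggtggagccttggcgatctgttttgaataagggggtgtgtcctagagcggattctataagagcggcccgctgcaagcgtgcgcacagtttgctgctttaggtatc
Bmp4: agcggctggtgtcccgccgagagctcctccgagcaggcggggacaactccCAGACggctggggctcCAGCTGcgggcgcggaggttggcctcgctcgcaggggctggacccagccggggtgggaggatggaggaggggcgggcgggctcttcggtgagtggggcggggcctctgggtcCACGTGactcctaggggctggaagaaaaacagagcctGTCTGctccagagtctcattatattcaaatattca

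The table of starts matched 8 of the 10 genes, all but Smad6 and Bmp7, and the search ran over 300 bases, 250 before and 50 after the start. In the Id1 window were 1 E-box, at -9, and 1 CAGAC, at 24 after the start and so beyond the bases shown. The Id2 window held 1 E-box, at -215, and the Id3 window none of the 5 motifs. In the Bmp4 window, CACGTG at -72 is an E-box that also holds ACGTG on both strands, and a second E-box stood at -184, with CAGAC at -200 and, on the other strand, at -35. GGCGCC was found in the windows of Smad7, Bambi and Id4, and in none of the other windows of these genes. The Bambi window also held ACGTG at -132, an E-box at 38, and TGACG at -78 and, on the other strand, at 7. That of Bmpr1a held none of the 5 motifs. Of all 33469 windows in the table, 19.3% held ACGTG, 11.0% GGCGCC, 50.1% CAGAC, 21.2% TGACG and 72.1% the E-box. These matches describe letters only, and bases further from the starts were not searched.

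Id2 was the most abundant of the 10 genes in every library. It was at 87.7, 91.1, 73.2 and 85.8 FPKM in control replicates 1 to 4 and at 231, 266, 223 and 242 FPKM in OGD replicates 1 to 4. The lowest OGD library thus lay well above the highest control library. The mean went from 84.5 ± 7.81 to 240.6 ± 18.6 FPKM (SD, n = 4 each), 2.85 times the control mean. On the log2(FPKM + 1) scale this was a rise of 1.50 (standard error 0.08; limma, adjusted p = 3.54e-07). Of the tested genes, 96 changed by more in either direction.

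Id1, the member of the family most often used as a readout of BMP signalling, started from a low level that varied among the control libraries. It was at 7.73, 3.82, 5.18 and 6.75 FPKM in control replicates 1 to 4, and at 31.6, 31.9, 25.3 and 33.5 FPKM in OGD replicates 1 to 4. Control replicate 2 was the lowest library, and the OGD libraries were closer to each other in proportion (SD of 11.7% of the mean, against 29.3% in control). The mean rose from 5.87 ± 1.72 to 30.6 ± 3.59 FPKM (SD, n = 4 each), 5.21 times the control mean, a log2 change of 2.23 (standard error 0.17; limma, adjusted p = 3.36e-06). Counted from the largest rise on this scale, Id1 ranked 23 among the tested genes.

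Id3, which in many cells is controlled together with Id1, rose from a level as low. Its values were 3.05, 4.10, 3.82 and 3.66 FPKM in control replicates 1 to 4 and 18.3, 23.5, 13.5 and 24.4 FPKM in OGD replicates 1 to 4. Here the control libraries were close together and the OGD libraries spread, with OGD replicate 3 the lowest of them. The mean rose from 3.66 ± 0.442 to 19.9 ± 5.04 FPKM (SD, n = 4 each), 5.45 times the control mean, a log2 change of 2.14 (standard error 0.16; limma, adjusted p = 3.85e-06). OGD replicate 3 was the lowest OGD library for all 4 Id genes.

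Id4, which takes part in the timing of oligodendrocyte differentiation, differed from the other three. It was at 4.60, 2.18, 3.44 and 3.86 FPKM in control replicates 1 to 4, and at 5.49, 5.04, 4.12 and 4.91 FPKM in OGD replicates 1 to 4. Control replicate 1 lay above OGD replicate 3, so the groups overlapped. The means were 3.52 ± 1.02 and 4.89 ± 0.571 FPKM (SD, n = 4 each), and the log2 difference of 0.41 had a standard error of 0.16 and a 95% interval of 0.05 to 0.76 (limma, adjusted p = 0.0582). That interval lies below those of Id2 (1.32 to 1.68), Id3 (1.78 to 2.50) and Id1 (1.86 to 2.60), though the difference between the Id genes was not itself tested. Leaving out single control libraries moved it. Without control replicate 1 the difference was 0.52 and passed (adjusted p = 0.0217), and without control replicate 2 it was 0.25 (adjusted p = 0.136, the ends of the range over 16 alternatives). With all libraries kept it also passed with quantile normalization (adjusted p = 0.0480) and with rescaling outside mitochondrially encoded genes (0.0383).

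**Figure D2:**
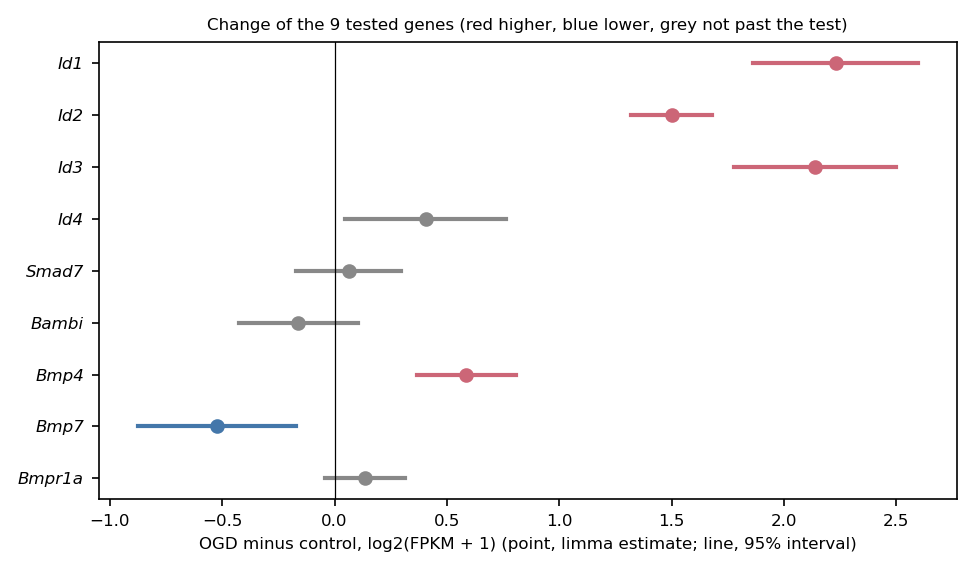
Difference between OGD and control on the log2(FPKM + 1) scale (horizontal axis) for the 9 genes that passed the filter, with the 95% interval of limma as a line. Id1, Id2 and Id3 stand apart at 1.50 to 2.23, Bmp4 lies at 0.59, Bmp7 at -0.52, and the 4 grey genes did not pass the test.

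Values in FPKM are set per length of gene, so the 4 Id genes can be added. Their sum was 103, 101, 85.7 and 100.1 FPKM in control replicates 1 to 4 and 286, 326, 266 and 305 FPKM in OGD replicates 1 to 4. Id2 made up most of this pool in every library, 85.1% to 90.0% in control and 79.4% to 83.9% in OGD. Id1 made up 3.77% to 7.50% of it in control libraries and 9.52% to 11.0% under OGD, and that of Id3 was 2.96% to 4.45% and 5.08% to 8.0%. Id4 went the other way as a share, from 2.15% to 4.47% in control to 1.54% to 1.92% in OGD. None of these 4 pairs of ranges overlapped, but the shares are parts of the same sum and so are not 4 separate results. In FPKM Id4 was not lower in OGD, with means of 3.52 in control and 4.89 in OGD and overlapping groups.

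**Figure D3:**
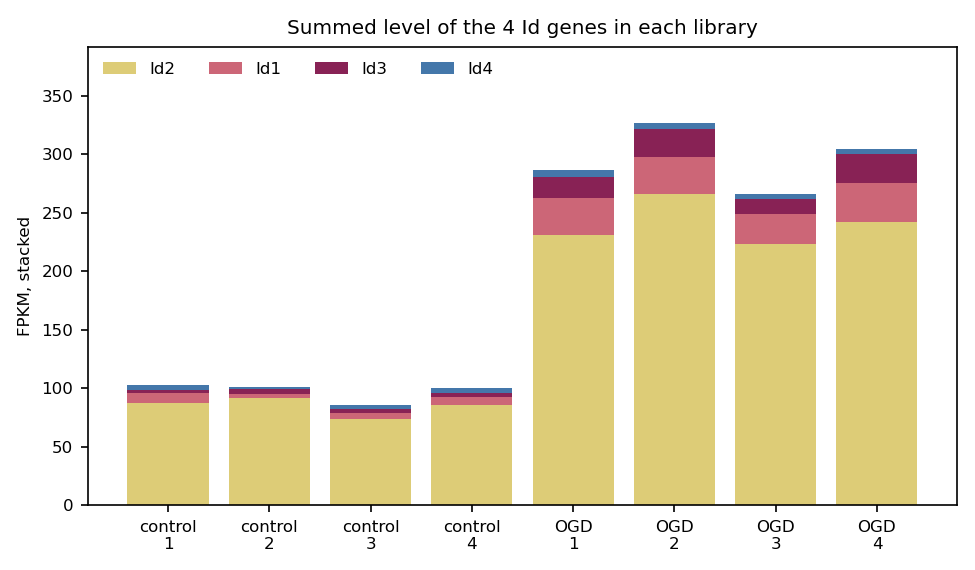
Stacked FPKM (vertical axis, from 0) of Id2, Id1, Id3 and Id4 in each of the 4 control and 4 OGD libraries. The bars reach 85.7 to 103 FPKM in control and 266 to 326 FPKM in OGD, and Id2 is the bulk of each.

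Bmp4, the ligand most studied as a brake on oligodendrocyte differentiation, was at 3.49, 2.94, 3.38 and 3.94 FPKM in control replicates 1 to 4 and at 6.06, 5.81, 5.25 and 5.47 FPKM in OGD replicates 1 to 4. Every OGD library lay above every control library. The mean rose from 3.44 ± 0.412 to 5.65 ± 0.360 FPKM (SD, n = 4 each), 1.64 times the control mean, a log2 change of 0.59 (standard error 0.10; limma, adjusted p = 7.35e-04). The steps between the values put 34 to 47 fragments behind them in control libraries and 53 to 72 in OGD libraries.

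Bmp7, a related ligand, fell in part of the OGD libraries. It was at 6.62, 8.94, 8.18 and 8.31 FPKM in control replicates 1 to 4, and at 3.90, 4.44, 5.80 and 7.38 FPKM in OGD replicates 1 to 4. OGD replicate 4 lay within the control range, while OGD replicates 1, 2 and 3 lay below it. The mean fell from 8.01 ± 0.986 to 5.38 ± 1.56 FPKM (SD, n = 4 each), a log2 change of -0.52 (standard error 0.16; limma, adjusted p = 0.0190). The OGD libraries also differed in the share of FPKM held by 13 mitochondrially encoded protein genes, 29.6%, 30.4%, 23.4% and 20.4% in replicates 1 to 4 (25.1% to 27.9% in control). With values rescaled outside these genes the change of Bmp7 was -0.49 (adjusted p = 0.0252). The call was lost without control replicate 2 (adjusted p = 0.0516) or without OGD replicate 1 (0.0524), and the range over 17 alternatives was 0.00151 to 0.0524. Both ligands together came to 10.1 to 12.3 FPKM in control libraries and 9.96 to 12.9 FPKM under OGD, with Bmp7 at 1.90 to 3.04 times Bmp4 in control and at 0.643 to 1.35 times in OGD.

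The other ligands were low. Of 14 BMP ligand genes, Bmp4 and Bmp7 included, 12 missed the filter, 2 of these were listed at 0 in all libraries, and only Bmp2 and Bmp3 came near it. Bmp2 lay between 0.459 and 0.683 FPKM in control libraries and between 0.813 and 1.65 FPKM in OGD libraries, and Bmp3 at 0.383 to 0.558 and 0.972 to 1.10 FPKM. Neither was tested in the main comparison. With no filter both were called higher by limma (adjusted p = 0.0269 for Bmp2 and 0.00147 for Bmp3).

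Bmpr1a, the type I receptor, was the second most abundant of the 10 genes in control and close to Id1 and Id3 in OGD. It was at 19.2, 24.4, 21.7 and 22.6 FPKM in control replicates 1 to 4 and at 25.5, 23.8, 22.6 and 24.7 FPKM in OGD replicates 1 to 4. The groups overlapped, and the log2 difference was 0.13 with a 95% interval of -0.04 to 0.31 (limma, adjusted p = 0.188). Among the other receptors and co-receptors, 3 of 6 tested genes rose and 0 fell, with a median log2 change of 0.36. Acvr2a, a type II receptor shared with activin, rose from 9.19 ± 1.27 to 16.5 ± 1.94 FPKM (limma, adjusted p = 2.14e-04). Rgma, a membrane-bound BMP co-receptor, rose from 11.0 ± 0.568 to 15.4 ± 0.644 FPKM (adjusted p = 4.22e-04), and the related Rgmb from 2.55 ± 0.547 to 4.08 ± 0.961 FPKM (SD, n = 4 each; adjusted p = 0.0204). The call on Rgmb was lost without control replicate 2 (adjusted p = 0.0574), control replicate 3 (0.0579) or OGD replicate 4 (0.0501; range over 16 alternatives 0.00815 to 0.0579). Bmpr2, the main type II receptor and the most abundant gene of this list after Bmpr1a, was at 19.5 ± 3.82 and 20.3 ± 3.25 FPKM (log2 difference 0.06, adjusted p = 0.750). That difference was -0.06 without control replicate 1 and -0.02 without OGD replicate 2.

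Smad7, which blocks receptors and recruits ubiquitin ligases to them, was at 1.81, 2.26, 1.97 and 1.89 FPKM in control replicates 1 to 4 and at 1.98, 2.30, 2.10 and 2.06 FPKM in OGD replicates 1 to 4. The values lay among each other, with a log2 difference of 0.06 and a 95% interval of -0.17 to 0.30 (limma, adjusted p = 0.651). Between 52 and 70 fragments stood behind each value, as the smallest numbers that fit. Bambi, a receptor-like protein without a kinase, read 1.76, 1.49, 1.19 and 1.55 FPKM in control replicates 1 to 4 and 1.18, 1.35, 1.16 and 1.21 FPKM in OGD replicates 1 to 4. Here too the groups overlapped, with a log2 difference of -0.16 and a 95% interval of -0.43 to 0.10 (adjusted p = 0.286). Between 12 and 16 fragments in control and 10 to 13 in OGD libraries stood behind the Bambi values, as the smallest numbers that fit.

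Smad6, the inhibitor of Smad1 and Smad5 signalling and in other cells a sensitive BMP target, was listed at 0 in control replicates 2, 3 and 4 and in OGD replicates 1 and 2. It was at 0.119 FPKM in control replicate 1, at 0.104 FPKM in OGD replicate 3 and at 0.101 FPKM in OGD replicate 4. Once depth was taken into account these 3 values were equal, which fits 1 fragment behind each. Smad6 was not tested, and no fold change is given.

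Smad1, Smad5 and Smad4, which carry the signal, stood above Smad7, Bambi and Smad6 in every library and rose. Smad9, which also carries it, was listed at 0 in every library but OGD replicate 1 (0.0975 FPKM) and was not tested. Among the 9 other tested genes of the intracellular list, 4 rose, 2 fell and 3 did not pass, with a median log2 change of 0.23. Smad4, the partner shared by all branches, rose from 35.1 ± 3.10 to 49.0 ± 2.13 FPKM (limma, adjusted p = 4.42e-04). Smad5 rose from 24.8 ± 1.47 to 35.3 ± 3.33 FPKM (adjusted p = 5.56e-04) and Smad1 from 18.0 ± 1.02 to 24.0 ± 2.37 FPKM (adjusted p = 0.00252). For each of the 3 every OGD library lay above every control library. Smurf2, a ubiquitin ligase that Smad7 recruits, rose from 10.7 ± 0.282 to 13.7 ± 0.503 FPKM (SD, n = 4 each; adjusted p = 0.00216). The 2 that fell were the Smad corepressors Skil, at -0.41 on the log2 scale (adjusted p = 0.0127), and Ski, at -0.32 (adjusted p = 0.0219). The call on Ski was lost without control replicate 2 (adjusted p = 0.0636), 3 (0.0590) or 4 (0.0523), without OGD replicate 1 (0.0583) and with rescaling outside the mitochondrial genes (0.0691).

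Secreted or surface antagonists of BMPs moved both ways. Of 6 tested, 3 rose, 2 fell and 1 did not pass (median log2 change 0.32), and 9 of the 15 genes missed the filter. Crim1, a transmembrane protein that binds BMPs, rose from 4.30 ± 0.604 to 7.74 ± 0.743 FPKM (limma, adjusted p = 3.02e-04). Noggin (Nog), which traps Bmp4 and Bmp7, was at 0.551 to 1.23 FPKM in control libraries and 1.74 to 2.91 FPKM in OGD libraries (log2 change 0.78, adjusted p = 0.00192). Among the control libraries only replicate 3 reached 1 FPKM, so Nog passed the filter through its OGD libraries. Nbl1 rose from 27.7 ± 2.99 to 34.2 ± 3.27 FPKM (limma, adjusted p = 0.0196). Without control replicate 2 Nbl1 did not pass (adjusted p = 0.0564, range over 17 alternatives 0.00352 to 0.0564). Twsg1, a modulator that binds BMPs together with chordin, fell from 17.0 ± 0.676 to 11.4 ± 0.890 FPKM (adjusted p = 2.21e-04), and Fstl1, a secreted glycoprotein reported to bind Bmp4, from 5.51 ± 0.604 to 2.51 ± 0.647 FPKM (SD, n = 4 each; adjusted p = 4.98e-04).

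Few other BMP target genes could be read. Of 10 listed, 8 missed the filter. Atoh8, a bHLH factor, rose from 3.45 ± 0.389 to 4.89 ± 0.820 FPKM (SD, n = 4 each; limma, adjusted p = 0.0170), with every OGD library above every control library. Hey1, also a target of Notch, was at 6.43 ± 1.09 and 8.52 ± 1.75 FPKM and did not pass (adjusted p = 0.0635). Without control replicate 1 (adjusted p = 0.0268), OGD replicate 3 (0.0397) or OGD replicate 4 (0.0349) it did, over a range of 0.0132 to 0.164 in 17 alternatives.

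Transcripts of the E proteins, which Id proteins bind, were themselves abundant. All levels compared here are of RNA, and protein was not measured. Tcf4 rose from 89.4 ± 11.3 to 139 ± 13.3 FPKM (limma, adjusted p = 3.96e-04) and Tcf12 from 91.3 ± 5.08 to 108 ± 7.01 FPKM (adjusted p = 0.0113), while Tcf3 fell from 28.5 ± 0.452 to 23.7 ± 0.653 FPKM (SD, n = 4 each; adjusted p = 0.00376). In control the Id2 level overlapped those of Tcf4 (74.1 to 101 FPKM) and Tcf12 (85.3 to 97.3 FPKM). It lay above that of Tcf3 (27.9 to 29.0 FPKM). In OGD every Id2 value (223 to 266 FPKM) lay above every value of Tcf4 (127 to 157 FPKM) and Tcf12 (99.4 to 114 FPKM). The same held for Tcf3 (22.9 to 24.5 FPKM). Each E protein gene was compared with Id2 singly, and these ranges do not show Id2 above their sum. Of 9 tested neural bHLH factors, 2 rose, 2 fell and 5 did not pass, with a median log2 change of -0.01. Bhlhe40 and Bhlhe41, transcriptional repressors, rose by 3.91 and 1.45 on the log2 scale (adjusted p = 1.24e-08 and 4.97e-06). Olig1, the most abundant of these factors, fell from 794 ± 41.4 to 357 ± 28.0 FPKM (SD, n = 4 each; adjusted p = 1.40e-06), and Hes6 fell by 0.47 on the log2 scale (adjusted p = 0.00532). Olig2, which did not pass, was at 297 ± 11.2 FPKM in control and 286 ± 25.7 FPKM in OGD libraries (SD, n = 4 each).

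The branch of transforming growth factor beta and activin, which works through Smad2 and Smad3, is set beside these genes for comparison. Of 12 tested genes, 6 rose, 1 fell and 5 did not pass, with a median log2 change of 0.33. Of those that rose, Tgfbr3 passed the filter only through its OGD libraries, and so had to be higher there. Tgif1, a corepressor of Smad2, rose by 1.04 on the log2 scale (limma, adjusted p = 5.53e-05), the ligand Tgfb2 by 0.85 (adjusted p = 5.95e-05) and Smad2 by 0.56 (adjusted p = 1.54e-04). Tgfb1 fell from 4.18 ± 0.862 to 1.59 ± 0.571 FPKM (SD, n = 4 each; adjusted p = 7.19e-04).

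**Figure D4:**
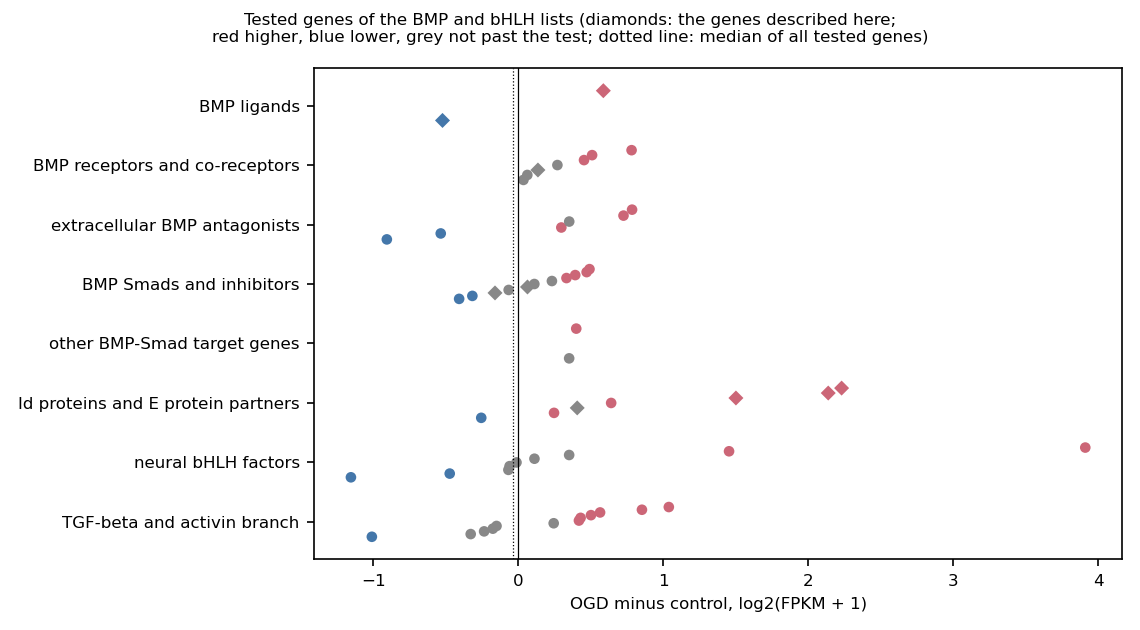
Difference between OGD and control on the log2(FPKM + 1) scale (horizontal axis) for the tested genes of 8 lists, one point per gene, with diamonds for the genes described here, red for higher, blue for lower and grey for not past the test; Hey1 is in 2 lists. Id1 and Id3 lie to the right of all other listed genes but Bhlhe40, and the Smad list lies between -0.41 and 0.49.

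In control the 10 genes fell in the order Id2, Bmpr1a, Bmp7, Id1, Id3, Id4, Bmp4, Smad7, Bambi and Smad6 by mean FPKM. Neighbours from Bmp7 to Smad7 overlapped each other in single libraries, except that every Bmp4 value lay above every Smad7 value, whereas Id2, Bmpr1a, Bambi and Smad6 did not overlap their neighbours. In OGD the order was Id2, Id1, Bmpr1a, Id3, Bmp4, Bmp7, Id4, Smad7, Bambi and Smad6. There Id1 overlapped Bmpr1a, Bmpr1a overlapped Id3, and Bmp4, Bmp7 and Id4 overlapped each other.

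Genes with the pattern most like that of each Id gene were sought among tested genes with a name. The measure was the Euclidean distance over the 8 libraries between log2(FPKM + 1) values, each gene centred on its control mean. Values were not scaled, so genes with a change of like size come out near, and a short distance does not show shared control. Nearest to Id1 were Eif4ebp1, a repressor of translation (distance 0.708), Slc6a9, a glycine transporter (0.747), and the mitochondrial folate enzyme Mthfd2 (0.755). Herpud1, a component of ER-associated degradation, was nearest to Id3 (0.715), followed by Mthfd2 (0.746) and the asparagine synthetase Asns (0.753). For Id2 the nearest were Lima1, an actin-binding protein (0.294), the chromatin remodeller Chd2 (0.335) and Banp, a nuclear DNA-binding protein (0.336). Inip (0.265) and the ribosomal proteins Rpl39 (0.318) and Mrpl34 (0.322) were nearest to Id4. Eif4ebp1 went from 15.3 ± 1.38 to 85.6 ± 10.3 FPKM and Lima1 from 27.9 ± 2.48 to 79.8 ± 5.48 FPKM (SD, n = 4 each).

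Markers were also read for the cell types that such a culture could hold. Of 9 tested precursor markers, 6 fell and 0 rose, with a median log2 change of -0.42, where 26.8% of all tested genes fell. The call on Gpr17 (limma, adjusted p = 0.0467) was lost in several alternatives, and that on Ptprz1 with quantile normalization (adjusted p = 0.104). Among those that fell were the surface proteoglycans Cspg4, from 82.5 ± 11.1 to 38.2 ± 5.56 FPKM, and Cspg5, from 203 ± 8.49 to 80.8 ± 8.88 FPKM, and Olig1 (SD, n = 4 each). Pdgfra, the PDGF receptor that defines these cells, fell from 276 ± 31.9 FPKM in control libraries to 152 ± 8.22 FPKM in OGD, and Sox10, which did not pass, was at 234 ± 15.7 and 246 ± 21.9 FPKM (SD, n = 4 each). The part of these falls in the results on the 10 genes was not tested. In such bulk samples fewer cells of a type and less RNA per cell cannot be told apart. Of 12 microglial markers, 11 fell and 0 rose, and they summed to 224 to 361 FPKM in control libraries and 74.4 to 140.1 FPKM in OGD libraries. Of those that fell, Cx3cr1 and Ptprc passed the filter only through their control libraries, and so had to be lower under OGD. The part of the microglial markers in the fall of Bmp7, Fstl1 and Tgfb1 was not tested. Of 7 tested astrocyte markers, 0 rose and 2 fell, of which Gfap passed the filter only through its control libraries and so had to be lower. The 10 matched summed to 176 to 190.3 FPKM in control and 167 to 175 FPKM in OGD. None of 12 vascular and stromal markers reached 1 FPKM in any library. The highest value of any was 0.211 FPKM, 3 were listed at 0 in all libraries, and the 12 summed to 0.367 to 0.606 FPKM in control and 0.171 to 0.354 FPKM in OGD. Of 7 tested oligodendrocyte markers 5 fell and 1 rose, and of 10 neuronal markers 3 fell and 2 rose. The calls on Mog, the oligodendrocyte marker that rose, and on Snap25, a neuronal marker that fell, were lost in several alternatives.

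Depth could be read only in relative terms, from the steps between low values. It ran from 0.816 in OGD replicate 2 to 1.18 in OGD replicate 4, with control replicate 1 set to 1. No 2 libraries held identical values.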

How the data were processed

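Messenger RNA of 4 control and 4 OGD samples was sequenced from a strand-specific library, per the labels' protocols. The authors deposited 1 table of FPKM values, with a column for each sample per the file headers. Trimmomatic, FastQC and the build rn6 are named in the submitters' processing notes. The aligner, the program behind FPKM and how it treated strand were not given in the sources used here. As FPKM is relative to the library's total, abundant genes that change shift the rest. Overlapping genes and near-identical copies may share reads, so their values are uncertain.

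Samples were grouped by title. Genes with 1 FPKM or more in 4 or more samples (11149 of 32662) were tested as log2(FPKM + 1) with limma 3.58.1 in R 4.3.3 (trend, group only), two-sided, with Benjamini-Hochberg adjustment over all of them and a threshold of 0.05. The script was tested on simulated data. Relative depth is the commonest ratio between 2 samples over genes of at most 0.5 FPKM (82.7% to 85.7% of genes gave whole ratios, within 0.01 in log2). Fragments behind a value are the smallest whole numbers, up to 100 in the library searched, that fit all 8 libraries within 0.15 of a fragment. Any common multiple would also fit. They were found for 6 of the 10 genes, not for Id1, Id2, Id3 and Bmpr1a, and no count test was run.

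The members and lists were chosen with earlier results of these data known. Of 169 entries in 14 lists, 165 were found by symbol. Apart from the BMP ligands, list counts in the text leave out the 10 genes described. Named from each list were the 3 smallest adjusted p past the threshold and the highest mean, and from all tested genes the 3 patterns nearest to each Id gene. Bmp3, Nog, Smad1, Smad9, Ski, Skil, Hes6, Tgfb1 and Olig2 were named after their values were seen. The 17 alternatives were a pseudocount of 0.1, no filter, a filter of 5 FPKM, quantile normalization, median-centring, rescaling outside the 13 mitochondrially encoded genes, no trend, a block for the replicate number, each of the 8 samples left out, and control replicate 1 with OGD replicate 4 left out. Promoters are RefSeq sequence. Python 3.11.15 (pandas 2.3.3, numpy 2.4.6) made the tables and matplotlib 3.10.9 the figures.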

Additional observations from a re-analysis of the deposited data

Results flagged for a closer look

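Smad6 in control replicate 1, at 0.119 FPKM, stood far from the other 3 control libraries, all listed at 0. It was the only such library among 88 groups of 4 (44 genes in 2 groups), where chance gives about 4.4. With the other 3 at 0, any value above 0 would have been flagged, so neither the flag nor the number given by chance carries weight here. The value fits 1 fragment, as do those of OGD replicates 3 and 4.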

How the results depend on the processing

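Id1, Id2, Id3 and Bmp4 were called higher in all 17 alternatives, with log2 changes of 2.07 to 2.40, 1.43 to 1.62, 1.97 to 2.38 and 0.53 to 0.71. Id4 passed in 5 of 16 (0.25 to 0.52): quantile normalization (adjusted p = 0.0480), rescaling outside mitochondrial genes (0.0383), the block, without control replicate 1 (0.0217) and without control 1 and OGD 4 together (0.0339). Smad7, Bambi and Bmpr1a passed in none. The count of the 10 genes that fell was 0 to 1 when single libraries were left out. Bmpr2 reversed, without a call in any alternative, to -0.065 and -0.024 when single libraries were left out. Over all genes, 2123 to 2728 rose and 2337 to 3245 fell. With a filter of 5 FPKM, which leaves out Id4, Smad7 and Bambi, 1 antagonist, 0 other BMP targets and 0 genes of the TGF-beta branch remained as lower, higher and lower, because fewer genes were tested. With no filter 2 further BMP ligands were higher, and with rescaling 1 (Bmp3). For the remaining counts the cause was not tested. Lower members of the Smad list numbered 1 with rescaling and 1 to 2 with single libraries left out. Higher BMP targets numbered 1 to 2 with single libraries left out and 2 without control 1 and OGD 4 together. Lower genes of the TGF-beta branch numbered 2 with quantile normalization, median-centring or control 1 and OGD 4 left out together, 3 without trend, and 1 to 2 with single libraries left out. Same-numbered libraries did not clearly deviate together (correlation of deviations -0.22 to 0.16 over 4 pairs, with 2 of 8 libraries closest to their own number). Over 4 pairs this cannot exclude that the numbers pair libraries, and no label says what the numbers share. With the replicate block 2497 genes rose and 3012 fell, 5 of the 10 genes rose and 1 fell, Id4 (adjusted p = 0.0426) and Hey1 (0.0331) passed, and 2 BMP targets were higher. Smad6, with values that fit 1 fragment, could not be compared at this depth.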

Other observations

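Within the control group Id1 and Id4 were high and low in the same libraries. Both were highest in control replicate 1 and lowest in control replicate 2, and Id4 stood at 0.596, 0.570, 0.665 and 0.572 of Id1 in control replicates 1 to 4. In OGD replicates 1 to 4 it stood at 0.174, 0.158, 0.162 and 0.147. The ratio thus kept a narrow range inside each group although Id1 itself ran from 3.82 to 7.73 FPKM in control. Id3 did not share this order: its lowest control library was replicate 1, and the ratio of Id3 to Id1 ran from 0.395 to 1.07 in control and from 0.533 to 0.735 in OGD. These ratios were looked at after the values had been seen, and no test was run on them.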
